A study of Mus musculus with 6 samples.

Results

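Muscle keeps ATP steady during contraction through enzymes that pass phosphate groups between nucleotides and creatine, and 10 genes of this system were followed in mouse soleus, a postural hindlimb muscle of slow and fast fibres. They were taken by name from the deposited tables, and all 10 of 10 were found among the 43074 gene names listed. They are 3 creatine kinase genes (Ckm, Ckb and Ckmt2), 3 genes of creatine supply (Slc6a8, Gamt and Gatm), the adenylate kinase gene Ak1 and the AMP deaminase genes Ampd1, Ampd2 and Ampd3. The 3 mKO libraries came from soleus of StarD7 mKO mice, in which the gene of a lipid transfer protein that brings phosphatidylcholine to mitochondria was targeted, and the 3 WT libraries from soleus of mice with the genotype WT, named controls in the series text. The series text counts 3 mice per group and names no treatment. The labels do not spell out mKO, and the driver of the deletion, the exons removed, and the strain, age and sex of the mice are not stated there.

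In the creatine kinase system, ATP made in mitochondria is used at the outer face of the inner membrane by the mitochondrial isoform to charge creatine, and phosphocreatine recharges ADP at the myofibrils through the cytosolic isoform. Adenylate kinase turns ADP into ATP and AMP when demand is high, and AMP deaminase converts that AMP to IMP, which the purine nucleotide cycle returns to AMP. Fast fibres are known to hold more cytosolic creatine kinase, adenylate kinase and AMP deaminase, whereas oxidative fibres hold more mitochondrial creatine kinase.

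The 3 creatine kinase genes are shown first by the 250 bases before their annotated start, because Ckm and Ckmt2 are the most abundant of the 10 and Ckm differed most between the groups. Sequences are from RefSeq on GRCm38.p6, an older build than that of the tables, and run 5′ to 3′ on the strand of the gene. Capitals mark each E-box (CANNTG, the letters bound by myogenic factors such as MyoD) and each TATA box (TATAAA), searched on both strands. Ckm lies on the plus strand at chr7:19410844-19411093, Ckb on the minus strand at chr12:111672339-111672588 and Ckmt2 on the minus strand at chr13:91876886-91877135.
Ckm: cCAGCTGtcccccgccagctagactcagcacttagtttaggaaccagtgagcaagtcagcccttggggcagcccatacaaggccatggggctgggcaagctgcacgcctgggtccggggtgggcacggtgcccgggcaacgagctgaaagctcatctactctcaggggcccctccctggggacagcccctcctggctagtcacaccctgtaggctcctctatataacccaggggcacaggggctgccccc
Ckb: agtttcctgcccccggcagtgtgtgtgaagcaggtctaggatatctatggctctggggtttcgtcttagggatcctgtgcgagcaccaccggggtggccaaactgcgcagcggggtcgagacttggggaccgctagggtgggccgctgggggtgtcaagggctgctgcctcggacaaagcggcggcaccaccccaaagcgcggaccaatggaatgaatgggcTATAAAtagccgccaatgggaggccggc
Ckmt2: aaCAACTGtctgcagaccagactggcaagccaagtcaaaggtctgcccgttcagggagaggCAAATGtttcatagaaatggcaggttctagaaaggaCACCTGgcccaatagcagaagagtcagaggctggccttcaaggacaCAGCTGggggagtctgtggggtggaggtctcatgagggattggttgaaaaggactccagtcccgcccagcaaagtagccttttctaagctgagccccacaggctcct

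These windows held 1 E-box for Ckm, 0 for Ckb and 4 for Ckmt2, and 1 TATAAA, in Ckb. Only these exact letters were counted as a TATA box, so the tatataa near the end of the Ckm window was not. Among 32851 promoter windows of the same length, 66.2% held at least 1 E-box and 12.4% a TATA box, so a match is a description and not a site. The letters TNAAGGTCA, known to be bound by estrogen-related receptors and present in 1.14% of windows, were in none of the 3. Of the 10 genes, 8 had an entry in the promoter table.

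The deposited values were TPM, read numbers divided by gene length and scaled to the same sum in each library, so levels can be compared between genes and each value depends on what the other genes take. Reads worked out from the TPM came to between 42928382 and 51287715 per library. The mitochondrially encoded genes took 46.8% to 48.9% of all TPM in mKO libraries and 42.1% to 45.1% in WT libraries, with no overlap. The targeted gene Stard7 stood at 25.9 ± 7.50 TPM in mKO and 92.6 ± 4.41 TPM in WT (SD, n = 3 each; log2 fold change −1.83, adjusted p = 0.00585, limma). Both fibre types were present: the summed TPM of 10 fast fibre genes was 24344 to 31854 in mKO libraries and 41294 to 47350 in WT libraries, and that of 7 slow fibre genes was 17526 to 25148 in mKO and 16257 to 21220 in WT. Of the 10 fast fibre genes 4 were called lower and 0 higher, and of the 7 slow fibre genes 0 were called (adjusted p below 0.05, limma). Of all genes tested 0.52% were called. All 10 fast fibre genes were lower in mKO without overlap, as were 10.3% of all genes tested. In whole muscle, fewer fibres of a type and less RNA per fibre cannot be told apart.

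Across all 6 libraries the 10 genes spanned more than 3 orders of TPM. Ckm was the most abundant, at rank 10 among nuclear genes by its mean in mKO and rank 8 in WT, and Ckmt2 followed at rank 17 in mKO and 18 in WT. Below them, without overlap between neighbours, came Ak1 (592 to 717 TPM), Ampd1 (186 to 236), Slc6a8 (98.5 to 114), Ampd3 (25.7 to 30.9) and Ckb (11.0 to 13.9). Gatm (2.73 to 4.58), Gamt (2.80 to 4.45) and Ampd2 (2.20 to 2.78) were at the bottom, and the order of Gatm and Gamt did not differ beyond their spread, while Ampd2 overlapped Gatm only at the edge. The depth behind these levels ran from between 88 and 140 reads per library for Gamt to between 245328 and 412519 for Ckm.

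**Figure D1:**
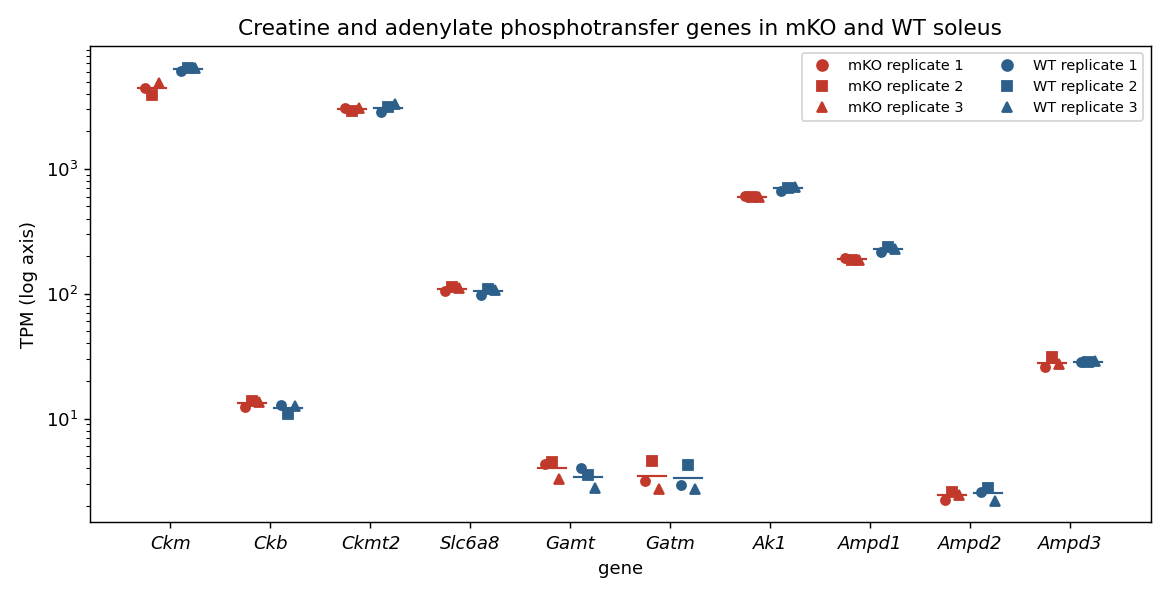
TPM (log axis) of the 10 genes in each mKO library (red, left) and WT library (blue, right), with symbols for replicates 1 to 3 and a line at each group mean. Ckm, Ak1 and Ampd1 are lower in all mKO libraries than in any WT library, and the other 7 genes overlap.

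None of the 10 genes passed the threshold in limma, where 0.52% of the 12301 genes tested were called, 0.423% as lower in mKO. All 10 passed the filter on low values. At an unadjusted p below 0.05 stood 3 of the 10, Ckm, Ampd1 and Ak1, against 10.7% of all genes, and limma-voom, run on the recovered reads, called 1 of them, Ckm, with 0.821% of its 11204 genes called. These 3 were also the genes whose groups did not overlap, each with lower TPM in mKO. Among all genes tested, the groups did not overlap for 16.0%, and 10.3% were without overlap and lower in mKO. The median log2 fold change of the 10 was −0.03, beside −0.01 for all genes tested. Of the 10, 6 had a value below 0 and 4 above.

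Ckm, the cytosolic muscle creatine kinase, had the largest difference of the 10. It stood at 4476, 3869 and 4904 TPM in mKO replicates 1, 2 and 3, against 6124, 6472 and 6377 TPM in WT replicates 1, 2 and 3. Every mKO library lay below every WT library, and the mKO libraries were spread more widely. The mean was 4416 ± 520 TPM in mKO and 6324 ± 180 TPM in WT (SD, n = 3 each), so mKO was at 69.8% of WT. The log2 fold change was −0.52 (SE 0.09), with an unadjusted 95% confidence interval of −0.73 to −0.32, and adjusted p = 0.0535 by limma, just above the threshold and so not called. Without mKO replicate 3, the mKO library with the most Ckm, the value was −0.60 and passed (adjusted p = 0.0215), in a fit that called 0.771% of all genes. With any other single library left out Ckm did not pass. There adjusted p ran from 0.0884 (without mKO replicate 2) to 0.275 (without WT replicate 2), by limma. mKO replicate 3 also had the most Stard7 in mKO, at 34.6 TPM, against 21.8 and 21.3 TPM in replicates 1 and 2. It had the highest fast fibre sum in mKO as well (31854 TPM). A link of Ckm with either was not tested, and a single library cannot tell them apart. Ckm also passed with library weights (−0.49, adjusted p = 0.0465, with 0.699% of all genes called) and by limma-voom (−0.47, adjusted p = 0.0482). Over nuclear genes alone, with the mitochondrially encoded genes left out of the TPM sum, it was −0.41 (adjusted p = 0.131) and the groups still did not overlap. The median of all genes was 0.09 there, in place of −0.01. Over all 15 other settings adjusted p ran from 0.0215 to 0.310.

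Ckmt2, the mitochondrial creatine kinase of striated muscle, overlapped between the groups. It stood at 3085, 2928 and 3088 TPM in mKO libraries, against 2868, 3121 and 3302 TPM in WT libraries, and all the mKO values lay within the WT range. In limma it came to −0.03 on the log2 scale (SE 0.06, interval −0.18 to 0.12, adjusted p = 0.923). A change to 69.8% of WT, as the Ckm means show, lies outside that interval. Its sign turned under 3 of the 9 settings that kept all libraries, reaching at most 0.09.

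The ratio of Ckm to Ckmt2 within a library does not depend on what other genes take of the TPM sum. It was 1.45, 1.32 and 1.59 in mKO libraries, against 2.14, 2.07 and 1.93 in WT libraries. The groups did not overlap, and the mean ratio was 1.45 ± 0.133 in mKO and 2.05 ± 0.105 in WT (SD, n = 3 each; a description, without a test). Of the summed TPM of Ckm, Ckb, Ckmt2 and Ckmt1, Ckm made up 59.1% ± 2.23 in mKO and 67.1% ± 1.14 in WT, and Ckmt2 40.8% ± 2.21 in mKO and 32.8% ± 1.14 in WT. That sum was 7463 ± 605 TPM in mKO and 9433 ± 374 TPM in WT.

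**Figure D2:**
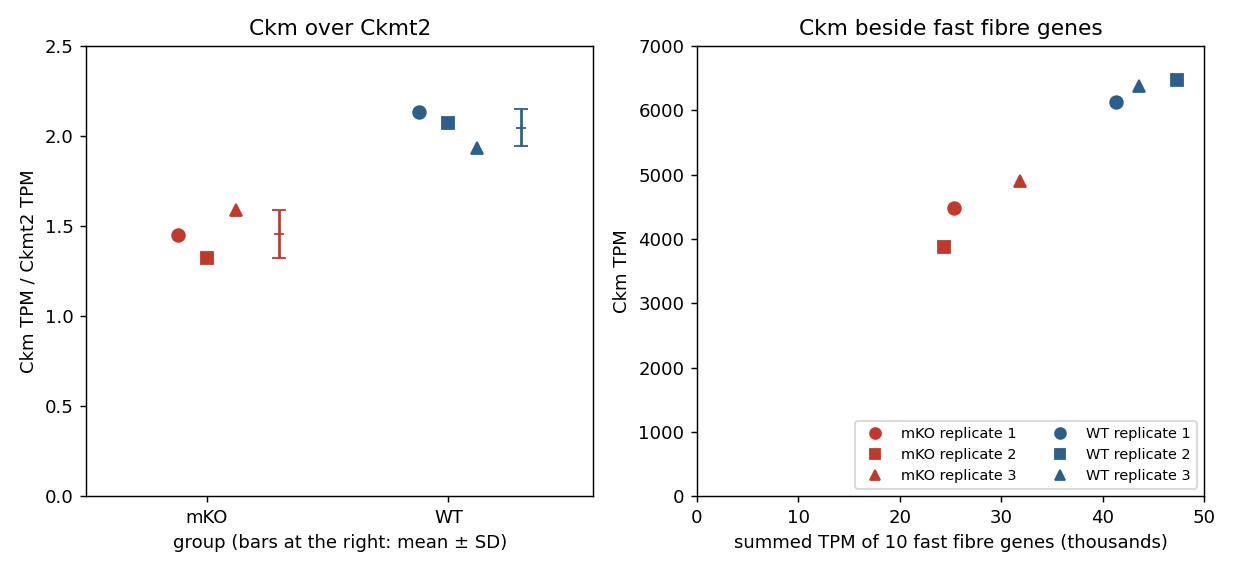
Left, Ckm TPM divided by Ckmt2 TPM in each library, mKO (red) left of WT (blue), with mean ± SD beside the points. Right, Ckm TPM against the summed TPM of 10 fast fibre genes, 1 point per library. The ratio is 1.32 to 1.59 in mKO and 1.93 to 2.14 in WT, and the mKO library with the most Ckm (4904 TPM) also has the highest fast fibre sum in mKO (31854 TPM).

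The fast fibre sum was lower in mKO, as Ckm was. Per 1000 TPM of the fast fibre sum, Ckm stood at 177, 159 and 154 in mKO libraries, against 148, 137 and 146 in WT libraries. On this measure mKO was the higher group, without overlap, since the fast fibre sum in mKO was at 61.6% of WT and Ckm at 69.8%. The genes of the sum ranged from 0.382% of WT (Mybpc2) to 71.3% (Tnnc2), with Myh1 at 9.21%. The measure thus depends on which genes are summed, and Ckm was not above Tnnc2 in percent of WT. Within each group the 3 libraries ranked alike by Ckm and by the fast fibre sum, with mKO replicate 3 and WT replicate 2 highest. Ak1 and Ampd1 did not rank this way in mKO, where replicate 1 had the highest TPM of both. Nor did every gene of the sum: Myh1 was highest in WT replicate 1 (3409 TPM), and Actn3 was lowest in mKO replicate 3 (12.9 TPM). Per 1000 TPM of the fast fibre sum, Ak1 stood at 23.8, 24.3 and 18.7 in mKO libraries, against 16.1, 14.9 and 16.5 in WT libraries, and Ampd1 at 7.61, 7.63 and 5.88 in mKO libraries, against 5.26, 4.98 and 5.27 in WT libraries. All 3 genes thus had higher values in mKO on this measure, in contrast to their TPM. The part of the fibre types in the Ckm, Ak1 and Ampd1 differences was not tested.

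Ckb, the cytosolic isoform best known from brain and smooth muscle, was a minor transcript. It stood at 12.3, 13.9 and 13.5 TPM in mKO libraries, against 12.9, 11.0 and 12.6 TPM in WT libraries, and the groups overlapped (log2 fold change 0.12, SE 0.08, interval −0.07 to 0.30, adjusted p = 0.682, limma). Of markers of cells that could bring Ckb RNA, 0 were called, beside 0.52% called of all genes tested. Summed TPM of 5 smooth muscle genes was 172 to 220 in mKO libraries and 190 to 197 in WT libraries. That of 6 Schwann cell genes was 35.0 to 51.0 in mKO and 40.2 to 59.5 in WT. One smooth muscle gene, Smtn, had no overlap and was lower in mKO, at 51.8 ± 3.55 TPM in mKO and 61.4 ± 2.79 TPM in WT (SD, n = 3 each; adjusted p = 0.224, limma), and the other 4 overlapped. Ckmt1, the mitochondrial isoform of other tissues, was at most 0.147 TPM in mKO and 0.0919 TPM in WT and was below the filter.

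Creatine supply held no called gene and no separation of the groups. Slc6a8, the sodium-dependent transporter that brings creatine into muscle, stood at 105, 114 and 111 TPM in mKO libraries, against 98.5, 108 and 107 TPM in WT libraries. The libraries of both groups were interleaved, and limma gave a log2 fold change of 0.07 (SE 0.06, interval −0.06 to 0.21, adjusted p = 0.718). Over nuclear genes alone the value became 0.19 (adjusted p = 0.152 by limma) and the groups no longer overlapped. That scaling put the median of all genes at 0.09, in place of −0.01. Ckb likewise had no overlap under it, at 0.23 (adjusted p = 0.205 by limma).

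Gatm acts on arginine and glycine in the opening step of creatine synthesis, and Gamt methylates the product to creatine. Both enzymes are best known from kidney and liver. Gamt had 4.29, 4.45 and 3.29 TPM in mKO libraries, against 3.98, 3.51 and 2.80 TPM in WT libraries. Gatm had 3.16, 4.58 and 2.73 TPM in mKO libraries, against 2.95, 4.25 and 2.74 TPM in WT libraries. Both overlapped between groups and rested on 88 to 299 reads per library. Their intervals were wide, −0.13 to 0.49 around 0.18 for Gamt and −0.36 to 0.47 around 0.05 for Gatm on the log2 scale (adjusted p = 0.702 and 0.953, limma). For the carrier gene Slc16a12, which can move creatine across membranes, the level was 1.16 ± 0.256 TPM in mKO and 1.07 ± 0.222 TPM in WT (adjusted p = 0.917, limma).

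Ak1, the main cytosolic adenylate kinase of muscle, was lower in every mKO library. It stood at 603, 592 and 595 TPM in mKO libraries, against 665, 707 and 717 TPM in WT libraries. The groups did not overlap, and the mKO libraries were close to each other. The mean was 597 ± 5.95 TPM in mKO, 85.7% of the 697 ± 27.8 TPM in WT (SD, n = 3 each; log2 fold change −0.22, SE 0.05, interval −0.33 to −0.11, adjusted p = 0.132, limma). Over nuclear genes alone, where the median of all genes was 0.09, the value was −0.10 (adjusted p = 0.328 by limma) and the groups overlapped.

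Ampd1, the AMP deaminase of skeletal muscle, showed the same layout. It stood at 193, 186 and 187 TPM in mKO libraries, against 217, 236 and 230 TPM in WT libraries. All mKO libraries lay below all WT libraries. The mean was 189 ± 3.65 TPM in mKO, 82.8% of the 228 ± 9.49 TPM in WT (log2 fold change −0.27, SE 0.05, interval −0.39 to −0.16, adjusted p = 0.0707, limma; SD, n = 3 each). Over nuclear genes alone, with that median of 0.09, the value was −0.15 (adjusted p = 0.19 by limma), still without overlap. Neither Ak1 nor Ampd1 passed under any of the 15 other settings, where adjusted p ran from 0.116 to 0.481 and from 0.0615 to 0.360, and both values were below 0 in all of them.

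The other AMP deaminases stayed close to WT in value. Ampd3, the isoform named for red blood cells and also made in muscle, stood at 25.7, 30.9 and 27.4 TPM in mKO libraries, against 28.2, 28.3 and 28.9 TPM in WT libraries. The WT values lay inside the mKO range. Limma gave −0.03 on the log2 scale (SE 0.07, interval −0.19 to 0.14, adjusted p = 0.943). Ampd2, the isoform best known from liver, had 2.23, 2.59 and 2.46 TPM in mKO libraries, against 2.57, 2.78 and 2.20 TPM in WT libraries, at −0.04 (SE 0.10, interval −0.27 to 0.19, adjusted p = 0.941, limma). The ratio of Ampd1 to Ampd3 was 7.48, 6.01 and 6.83 in mKO libraries, against 7.71, 8.35 and 7.97 in WT libraries, lower in each mKO library. Ampd1 made up 86.1% ± 1.30 of AMP deaminase TPM in mKO and 88.0% ± 0.395 in WT.

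Red blood cell genes, which bear on Ampd3, overlapped between groups: their summed TPM was 560 to 1249 in mKO libraries and 896 to 1191 in WT libraries, and Slc4a1, a defining red cell membrane gene, was listed at 0 in 4 of 6 libraries. Markers of macrophages, fat cells, endothelium and fibroblasts had 0 called genes, beside 0.52% called of all genes tested. All 5 macrophage values were above 0 and all 4 fat cell values below, with overlapping groups. The fibroblast gene Pdgfra was higher in mKO without overlap, at 119% of WT (adjusted p = 0.437, limma). The endothelial gene Cdh5 was lower without overlap, at 93.5% of WT (adjusted p = 0.535, limma). Among all genes tested 16.0% had no overlap. Among 8 genes of denervation and atrophy, 6 were tested and 0 were called, 5 with values above 0 and 1 below, at a median of 0.24 on the log2 scale. Chrna1, an acetylcholine receptor subunit gene, stood at 139% of WT (adjusted p = 0.317, limma), and the ubiquitin ligase gene Trim63, the 1 below 0, at 65.9% of WT (adjusted p = 0.217). Their summed TPM, most of it from Trim63 and Fbxo32, was 290 to 347 in mKO and 329 to 383 in WT. In GENCODE M21, Rnf141 overlaps Ampd3 on the opposite strand (5.97 to 7.45 TPM), and Gm43063 overlaps Ampd1 on the same strand (3.14 to 5.83 TPM). No source used here says whether counting used strand, and reads of Ampd3 and Rnf141 may not have been told apart.

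**Figure D3:**
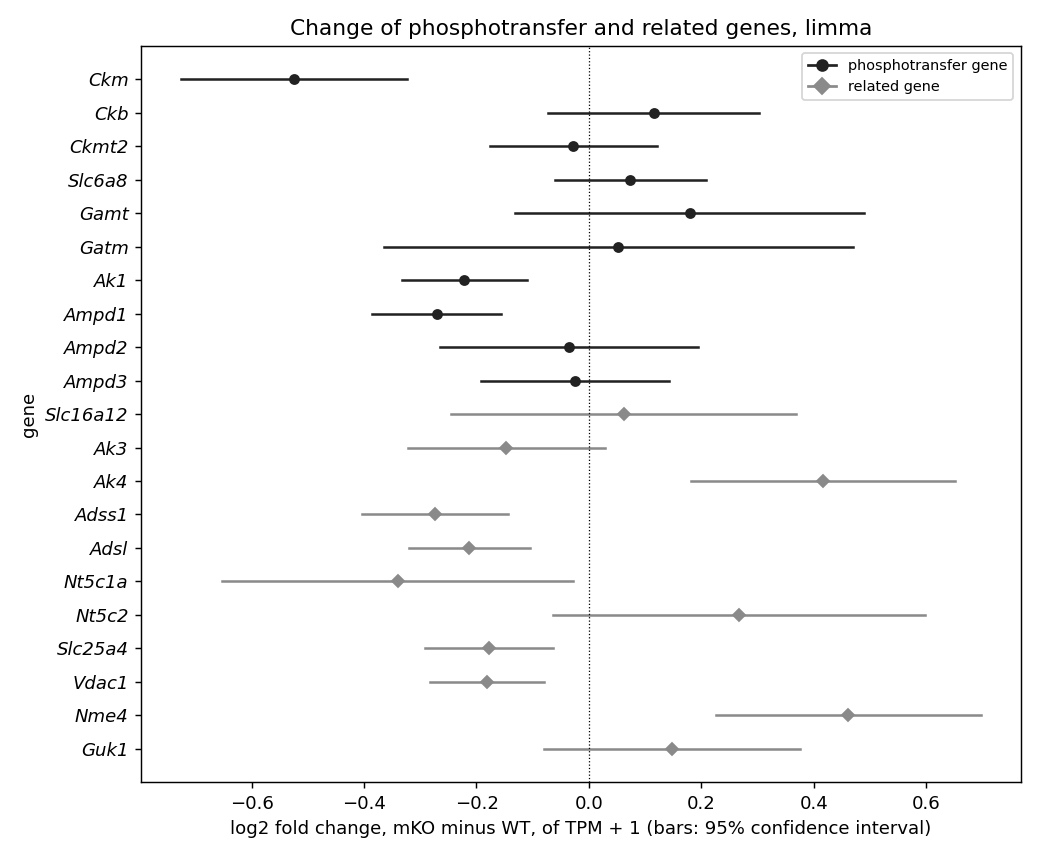
Log2 fold changes (mKO minus WT, of TPM + 1) with unadjusted 95% confidence intervals for the 10 phosphotransfer genes (black) and 11 related genes (grey). The intervals of Ckm, Ampd1 and Ak1 lie below 0 and those of the other 7 members cross it, while no gene shown passed the adjusted threshold.

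Of 35 related genes, 28 were tested and 0 were called by limma. Of those tested, 8 of 28 had an unadjusted p below 0.05, against 10.7% of all genes, of which 0.52% were called. The median log2 fold change of the 28 was −0.06, beside −0.01 for all genes tested. In the purine nucleotide cycle, which returns IMP to AMP, the level of Adss1 (listed as Adssl1), the muscle adenylosuccinate synthase, was 662, 655 and 732 TPM in mKO libraries, against 834, 808 and 831 TPM in WT libraries. Adsl, the lyase of the next step, stood at 41.0, 40.7 and 41.3 TPM in mKO libraries, against 47.2, 47.8 and 48.1 TPM in WT libraries. With Ampd1 at 82.8% of WT, Adss1 at 82.8% and Adsl at 86.0%, all 3 had lower TPM in every mKO library than in any WT library, as did 10.3% of all genes tested, and none of the 3 was called. The second synthase gene, Adss2 (listed as Adss), was at 0.04. Neither Adss1 (−0.27, SE 0.06, adjusted p = 0.111) nor Adsl (−0.21, SE 0.05, adjusted p = 0.136) passed in limma, and Adss1 passed without mKO replicate 3 (adjusted p = 0.0474). Over nuclear genes alone their values were −0.16 and −0.10, where the median of all genes was 0.09.

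The 6 genes that exchange adenine nucleotides and phosphate across the mitochondrial membranes held 0 called genes, beside 0.52% called of all genes tested. They had 5 values below 0 and 1 above. Of the 6, 4 were lower in mKO without overlap, as were 10.3% of all genes tested. Slc25a4, the main ADP/ATP carrier of muscle, had 3028, 2940 and 3044 TPM in mKO libraries, against 3297, 3464 and 3436 TPM in WT libraries. The outer membrane channel gene Vdac1 had 986, 981 and 1011 TPM in mKO libraries, against 1122, 1141 and 1113 TPM in WT libraries. In TPM as deposited both had no overlap, at −0.18 each (adjusted p = 0.229 and 0.172, limma). Over nuclear genes alone both were at −0.06, where the median of all genes was 0.09. On that scaling the Slc25a4 groups overlapped, and those of Vdac1 did not. Slc25a5, the second ADP/ATP carrier of the list, was the 1 above 0, at 78.0 ± 3.07 TPM in mKO and 72.1 ± 6.33 TPM in WT (0.11 on the log2 scale, adjusted p = 0.637, limma; SD, n = 3 each), with overlapping groups.

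Among the other adenylate kinases and nucleoside phosphate kinases, the largest differences were in the opposite direction and at low levels. Ak4, a mitochondrial adenylate kinase, stood at 1.93, 2.18 and 1.70 TPM in mKO libraries, against 1.24, 1.18 and 1.16 TPM in WT libraries. Nme4, the mitochondrial nucleoside diphosphate kinase, had 2.13, 2.56 and 2.65 TPM in mKO libraries, against 1.39, 1.48 and 1.62 TPM in WT libraries. Every mKO library was above every WT library for both, at 162% and 163% of the WT mean. The same held for 698 of the 12301 genes tested. The log2 fold changes of 0.42 (SE 0.10) and 0.46 (SE 0.10), which understate the ratio at such low TPM, did not pass (adjusted p = 0.176 and 0.139, limma). Ak3, the matrix enzyme that uses GTP, was at −0.15 and Guk1, the guanylate kinase, at 0.15, with overlapping groups. Nme2, the most abundant nucleoside phosphate kinase listed, stood at 445 ± 21.2 TPM in mKO and 488 ± 12.0 TPM in WT. It was lower in mKO without overlap, as were 10.3% of all genes tested (−0.13, adjusted p = 0.412, limma). In AMP and adenosine disposal, Nt5c1a, a cytosolic AMP nucleotidase, was at −0.34 (adjusted p = 0.42, limma) and Nt5c2, an IMP nucleotidase, at 0.27 (adjusted p = 0.575, limma).

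For 1 gene of each role, the one with the largest absolute log2 fold change in these same data, the genes with the most similar profile were found. Likeness was the root mean square difference of log2(TPM + 1), centred on each gene's mean over the 6 libraries. Candidates were tested genes with a mean of at least 5 TPM, a level that Gamt itself did not reach. Closest to Ckm among 7988 genes were Cd24a (0.0594), Pfkm (0.0626) and Ppm1l (0.0665), all in log2 units. Ampd1 was closest to Tmod4 (0.0290), followed by Ak1 (0.0305) and Syngr2 (0.0313), over profiles that include the difference between the groups. For Gamt they were Il10rb (0.0339), Vkorc1 (0.0449) and Sema3f (0.0492).

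**Figure D4:**
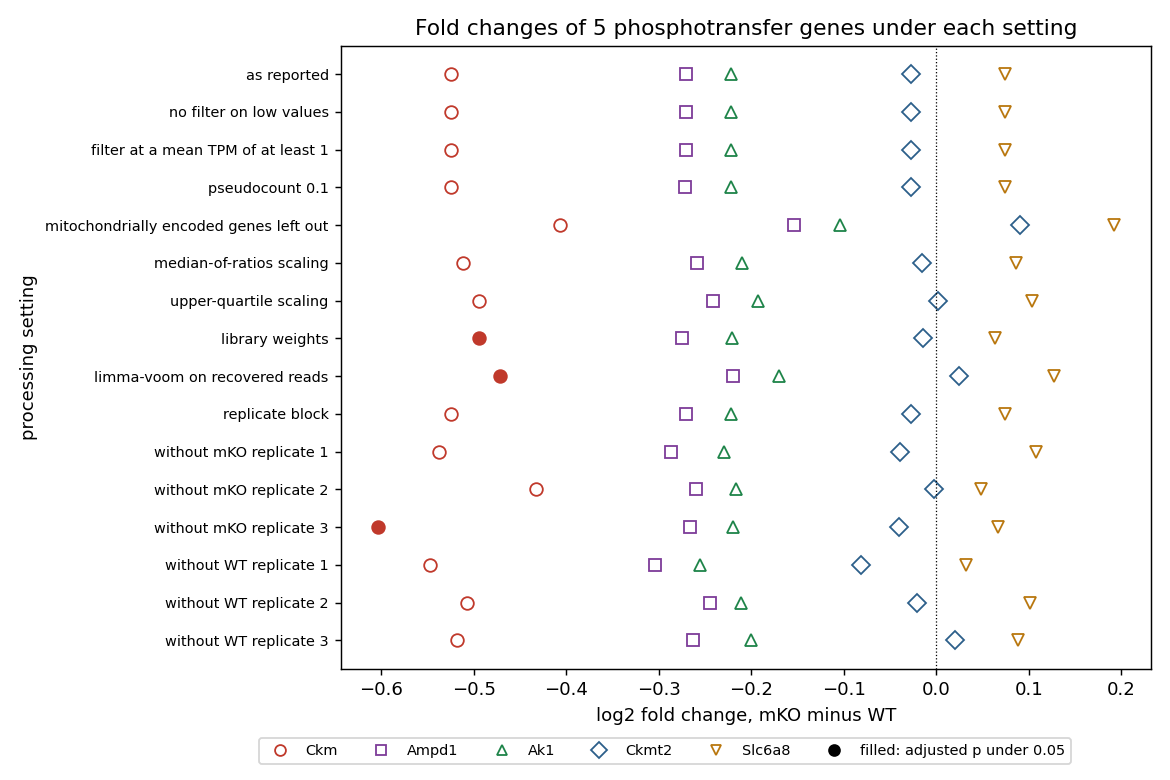
Log2 fold changes (mKO minus WT) of 5 of the genes as reported and under each of 15 other settings, with filled symbols where adjusted p was below 0.05. Ckm, Ampd1 and Ak1 stay below 0 in every setting shown, Ckm is filled in 3 of them, and Ckmt2 lies on either side of 0.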

How the data were processed

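RNA of soleus was measured in 3 mKO and 3 WT libraries, grouped by genotype in the labels. Per the labels' protocols, libraries were poly(A)-selected and directional. Each library has its own table of TPM as deposited, and the submitters' processing notes name GRCm39. The sources used here do not give the aligner, counter or strand setting. The members, gene lists and tests were chosen with earlier results of these data known.

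The 12301 genes that reached 1 TPM in 3 or more libraries entered a limma-trend fit of log2(TPM + 1) on genotype (limma 3.58.1 in R 4.3.3), and p-values were adjusted over all of them by Benjamini-Hochberg (threshold 0.05). Values on that scale understate changes of low genes. Reads were recovered from TPM and GENCODE M21 exon lengths: 93.13% of 22729 genes with a single matching name came out whole, within 0.05 reads. No 2 libraries of a group agreed within sampling noise (chi-square over df 18.43 to 35.19).

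All 10 members were named. Of each related list, called genes and the 2 with the largest change were named. Rnf141, Gm43063, Adss2, Ckmt1, Slc4a1, Slc25a5, Smtn, Pdgfra, Cdh5, Chrna1, Trim63, Fbxo32, Myh1, Actn3, Mybpc2, Tnnc2 and Nme2 were named after their values were seen. The fit was checked on simulated data with known changes and the spread of the WT libraries. That check did not set a shift in the share of mitochondrially encoded genes, so it does not bear on that part of the scaling. Alternatives were other filters, a pseudocount of 0.1, other scalings, library weights, limma-voom, a replicate block and each library left out.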

Additional observations from a re-analysis of the deposited data

How the results depend on the processing

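No member was called as reported; 1, Ckm, was called with library weights and 1, again Ckm, by limma-voom, and 0 to 1 when 1 library was left out (Ckm without mKO replicate 3). Over all genes, 64 were called, 12 higher and 52 lower in mKO. This became 6 (4 lower) with no filter on low values, 41 (20 higher, 21 lower, so 48.78% higher in place of 18.75%) with mitochondrially encoded genes left out, 38 (28 lower) with upper-quartile scaling, and 4 to 94 (3 to 76 lower) with 1 library left out (lowest without WT replicate 2, highest without mKO replicate 3). Limma-voom called 35 higher and 57 lower. The replicate block gave 21 (16 lower) and 0 members. Deviations of libraries with the same number correlated at 0.095, 0.0474 and 0.131 for numbers 1, 2 and 3. Each library correlated best with its own number, a hint from the data and not from the design. The labels do not say that the numbers pair the animals, so the block was kept as an alternative and pairing was not settled.

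Small values changed sign. Ckmt2 was 0.0905 with mitochondrially encoded genes left out, 0.00203 with upper-quartile scaling, 0.0247 by limma-voom and −0.0819 to 0.0198 with 1 library left out. Ampd3 was 0.0901, 0.00323 and 0.0271 in the same 3 settings and −0.0954 to 0.0313 with 1 library left out. Ampd2 was 0.00575 by limma-voom, 0.0564 with mitochondrially encoded genes left out and −0.101 to 0.0182 with 1 library left out. Gatm was −0.0636 with library weights and −0.115 to 0.203 with 1 library left out. The cause was not tested. Ckm, Ckb, Slc6a8, Gamt, Ak1 and Ampd1 kept their direction in all 15 other settings. The Stard7 call was lost with no filter (adjusted p = 0.0858, limma) and without WT replicate 2 (adjusted p = 0.0703). Depth limits Gamt, Gatm and Ampd2, with at most 310 reads per library.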
